A study of Mus musculus with 8 samples.

Results

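The genes examined here act in the cAMP signalling that controls the arrest of the mouse oocyte in prophase of the first meiotic division. The 10 members were taken by name from the count table: the receptors Gpr3 and Gpr12, the adenylyl cyclases Adcy3 and Adcy9, the phosphodiesterase Pde3a, the catalytic subunits Prkaca and Prkacb and the regulatory subunits Prkar1a and Prkar2a of protein kinase A (PKA), and the anchoring protein Akap1. They are 10 of the 46078 genes in the table, and all 10 were among the 19241 genes tested.

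A fully grown oocyte keeps its large nucleus, the germinal vesicle (GV), until a hormone signal ends the arrest. In the textbook account, constitutively active receptors of the GPR3 family act through a stimulatory G protein on adenylyl cyclase, cAMP activates PKA, and PKA keeps CDK1 inactive through the kinase WEE2 and the phosphatase CDC25B. PDE3A breaks cAMP down, and cGMP that enters from granulosa cells through gap junctions inhibits it until luteinizing hormone acts.

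RNA-seq libraries of GV oocytes came from 2 groups of 4 libraries, each made from 100 oocytes. CNOT7&8 KO oocytes were from C57BL/6J females whose floxed Cnot7 and Cnot8 alleles, coding for the DEDD-type deadenylases of the CCR4–NOT complex, were deleted by Cre under the Zp3 promoter, which is active in growing oocytes. Zp3-Cre oocytes, which carry the same transgene, served as the control. Per the study's methods, females were 4 weeks old and primed with PMSG, and GV oocytes were kept until use in medium with dibutyryl-cAMP, a cell-permeable cAMP analogue that maintains the arrest. The number of animals behind a library is not given in the sources used here, so the p-values measure the spread between libraries, which may be in part technical.

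Library totals ranged from 14943671 to 44092144 counts in control and were 8639444 to 26784110 counts in the KO group, and 3 counts corresponded to between 0.0802 and 0.326 normalized CPM. CPM are counts scaled to a common library size after TMM, the edgeR scaling that takes most genes as unchanged. Cnot8 was at 168 ± 20.009 CPM in control and 35.2 ± 1.40 CPM in the KO libraries (SD, n = 4), and Cnot7 at 933 ± 77.3 and 719 ± 70.8 CPM. All 10 oocyte markers examined were detected, with a summed level of 20142 to 23394 CPM in control and 16636 to 19282 CPM in the KO libraries. Of 12 granulosa cell markers, 11 were tested, and their summed level was 143 to 189.6 CPM in control and 227 to 285 CPM in the KO libraries. In that list 6 of the 11 were higher and 2 lower by an adjusted p of at most 0.05, against 31.2% and 24.1% of all genes tested, and the 6 were at least 2-fold higher, against 23.8%. The markers did not move together: Cyp19a1, the most abundant in control, fell from 58.5 ± 8.01 to 31.3 ± 6.02 CPM and Gata4 from 15.3 ± 0.617 to 11.7 ± 1.26 CPM, whereas Nr5a2, the marker with the largest difference in CPM, rose from 56.6 ± 9.28 to 122 ± 8.26 CPM (SD, n = 4). Foxl2 had at most 1 count in any library. In such bulk samples fewer cells of a type and less RNA per cell cannot be told apart, and the part of granulosa cell RNA in the results below was not tested. Control replicate 1, the deepest library, and KO replicate 4 lay apart from their groups for several genes, so each count was also taken without them.

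The study proposes that CCR4–NOT holds back translation of mRNAs with the cytoplasmic polyadenylation element (CPE) by shortening their poly(A) tails. The CPE is UUUUAU, which is TTTTAT in the genome. The paper reports that most proteins raised in the KO came without a rise in their mRNA. The RNA levels given here do not measure translation or protein of the members. The longest annotated 3′UTR (GENCODE vM21, GRCm38) held at least 1 copy in 8 of the 10 members and none in Gpr12 (706 bases) and Adcy9 (369 bases). The copy closest to the annotated 3′ end is shown for each of the 8, with up to 10 bases on either side in lower case and the CPE in capitals, because its distance from the annotated 3′ end differs among the members. Coordinates are those of the 6 capital bases.
Gpr3 (chr4:133209653-133209658, minus strand): gcctctggttTTTTATttttttaaga
Adcy3 (chr12:4213499-4213504, plus strand): aacaggactgTTTTATtaaaagcttt
Pde3a (chr6:141506682-141506687, plus strand): gttatatttaTTTTATtgttttttta
Prkaca (chr8:83995832-83995837, plus strand): gaaagggagaTTTTATgacctgtaca
Prkacb (chr3:146730310-146730315, minus strand): aaaaccagtaTTTTATtcaaagtata
Prkar1a (chr11:109669137-109669142, plus strand): ggctatctttTTTTATatttaaaaaa
Prkar2a (chr9:108749807-108749812, plus strand): tctgggtagtTTTTATctctcactac
Akap1 (chr11:88830874-88830879, minus strand): gtgttgactcTTTTATagactgtctt

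The last CPE lay 21 bases from the annotated end in Adcy3 and 82 bases from it in Akap1, but 313 in Gpr3, 514 in Prkar1a, 606 in Prkaca, 624 in Prkar2a, 736 in Prkacb and 761 in Pde3a. Pde3a had 11 copies in a 3′UTR of 8555 bases, Prkacb 5 in 3014 bases, Prkar2a 3 in 3442 bases, and Gpr3, Prkar1a and Akap1 had 2 each. The element is common. Of 15120 tested genes whose annotated 3′UTR had 50 bases or more, 56.2% held it, and among genes with a 3′UTR of similar length the share was 99.5% for Pde3a, 86.5% for Prkacb, 88.6% for Prkar2a, 78.4% for Prkar1a, 55.5% for Gpr3 and 54.1% for Akap1. Akap1 also held 2 copies of the Pumilio element UGUAAAUA, present in 12.0% of those 15120 genes, and Pde3a held 2. A match is a description of the annotated sequence, and which 3′ ends the oocyte uses was not measured. The 3′UTR of Akap1 held no poly(A) signal (AAUAAA or AUUAAA), and in Pde3a the last lay 1519 bases from the annotated end. The distances for these genes are therefore uncertain. In Adcy3 the CPE overlaps the last such signal, 17 bases from the end.

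**Figure D1:**
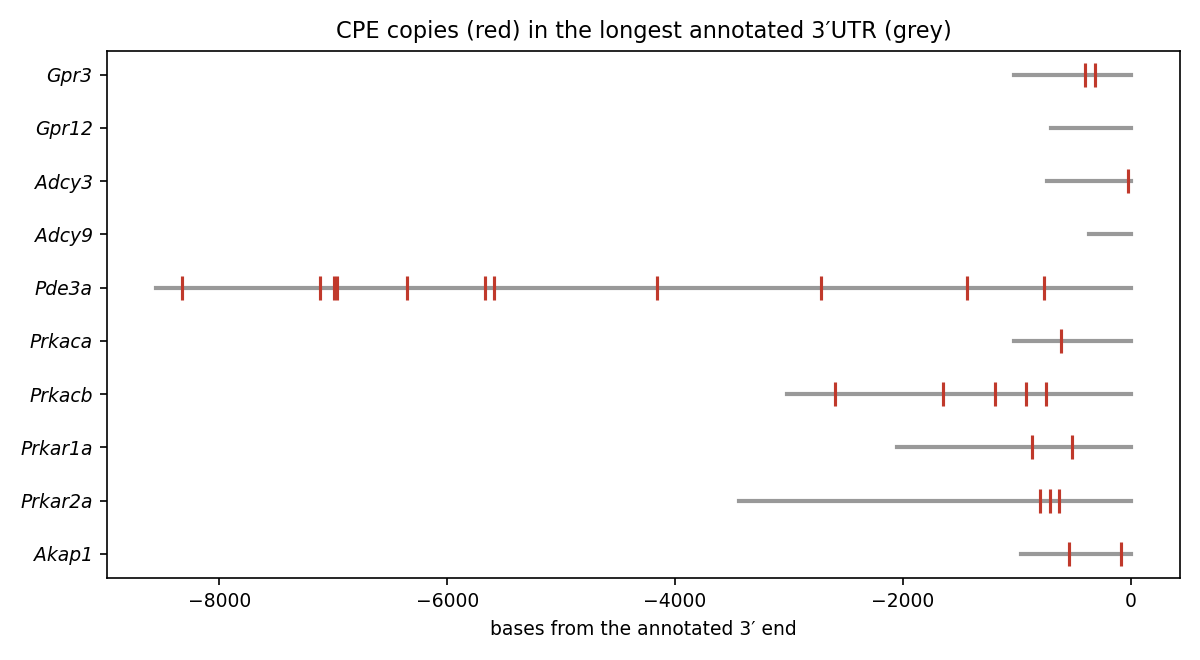
Grey lines show the longest annotated 3′UTR of each of the 10 members, with the x axis in bases from its annotated 3′ end, and red marks show the CPE copies. Gpr12 and Adcy9 have none, Pde3a has 11, and the copies closest to an end are those of Adcy3 (21 bases) and Akap1 (82 bases).

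The members differed widely in level in control oocytes. Per kilobase of exon, Akap1 was the most abundant, at 82.2 ± 8.35 CPM per kb (SD, n = 4), above 96.5% of the tested genes. Pde3a followed at 19.2 ± 4.91, Prkar1a at 12.6 ± 1.42, Gpr3 at 12.2 ± 1.92, Prkar2a at 9.74 ± 2.28, Prkaca at 9.19 ± 0.981 and Adcy9 at 5.53 ± 0.572 CPM per kb. Gpr12, at 1.18 ± 0.188, Prkacb, at 1.07 ± 0.188, and Adcy3, at 0.154 ± 0.0199 CPM per kb, were the lowest. In this order the ranges of the control libraries overlapped between Prkar1a and Gpr3, between Gpr3 and Prkar2a, between Prkar2a and Prkaca, and between Gpr12 and Prkacb, so these neighbours were not separated, whereas the other neighbours were.

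With TMM scaling, no member reached a 2-fold change in RNA level in CNOT7&8 KO oocytes. Only the cyclase Adcy9 and the anchoring protein Akap1 differed at a false discovery rate of 0.05, both being lower. These calls depended on the scaling: by library size alone, 4 members were higher and 0 lower. TMM takes most genes as unchanged, but in this fit 31.2% of genes tested were called higher and 24.1% lower, together most of them. How far this affects the scaling was not tested. The test was edgeR's quasi-likelihood F-test, with p-values adjusted by Benjamini-Hochberg over the 19241 genes. By the adjusted p alone, 0 of 10 members were higher and 2 lower, where 31.2% of all genes tested were higher and 24.1% lower. The count of lower members was thus near the share of all genes. With a 2-fold change required as well, as for the DEGs of the study, no member was called in either direction, against 23.8% of all genes called higher and 6.56% lower. At an unadjusted threshold of 0.05 edgeR called 1 member higher, Prkar2a, as did DESeq2 after adjustment. The median log2 fold change was -0.07 over the 10 members and 0.12 over all genes tested.

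**Figure D2:**
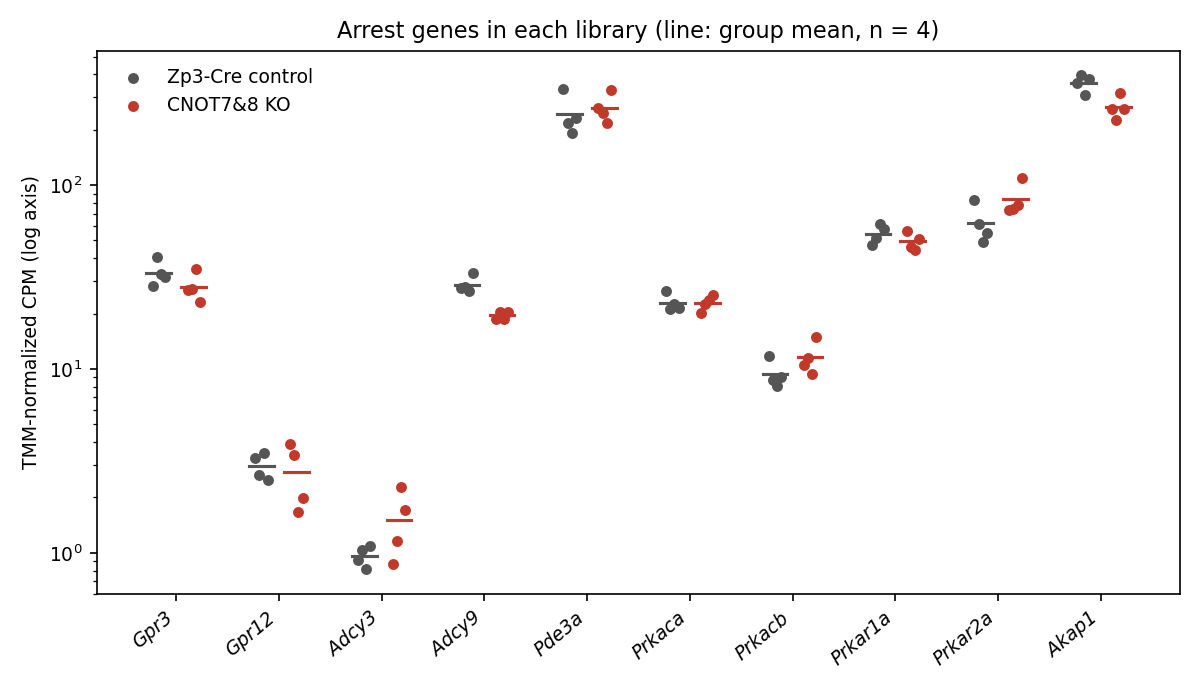
Each point is 1 library, with TMM-normalized CPM on a log axis, 4 Zp3-Cre control libraries in grey and 4 CNOT7&8 KO libraries in red for each member, and lines are group means. The groups separate for Adcy9 (26.4 to 33.1 against 18.7 to 20.5 CPM) and overlap for the other members.

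Gpr3 codes for the constitutively active receptor that sustains cAMP synthesis in mouse oocytes. Gpr3 (ENSMUSG00000049649, chromosome 4 from 133209340 to 133212536) was at 28.3, 40.7, 32.7 and 31.8 CPM in control replicates 1 to 4 and at 26.8, 27.2, 34.9 and 23.1 CPM in KO replicates 1 to 4. Most KO libraries were below the controls, but KO replicate 3 lay within the control range. The means were 33.4 ± 5.25 and 28.0 ± 4.97 CPM (SD, n = 4), and the log2 fold change (log2 FC, here with its standard error) of -0.25 ± 0.16 did not pass the test (edgeR adjusted p = 0.197). Exons of Gpr3 share 204 bases with Cd164l2 on the opposite strand, which had 1563 to 7930 counts and was lower in KO (log2 FC -0.87, edgeR adjusted p = 0.000456), and since the strand setting of the counting is not given in the sources used here, the part of such reads was not tested.

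Gpr12, a related receptor, was much less abundant, at 3.26, 2.67, 3.47 and 2.48 CPM in control and at 3.91, 3.41, 1.67 and 1.98 CPM in the KO libraries. The KO values fell on both sides of the controls, with 27 to 62 counts in each KO library (log2 FC -0.15 ± 0.29 SE, edgeR adjusted p = 0.679). Counts per kb of Gpr12 relative to Gpr3 within a library had a mean log2 ratio of -3.37 ± 0.38 in control and -3.31 ± 0.72 in KO libraries (SD, n = 4), a difference of 0.063 (exact permutation test, two-sided p = 0.886, adjusted p = 0.886 over 5 ratios). Gpr3 thus held 91.0% ± 2.11 of the reads per kb of Gpr3, Gpr6 and Gpr12 in control and 90.2% ± 3.88 in KO libraries (SD, n = 4), and Gpr6 had no count in any library.

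The cyclases make cAMP from ATP. Adcy9 (ENSMUSG00000005580, chromosome 16 from 4287529 to 4420498) was at 27.5, 27.9, 26.4 and 33.1 CPM in control and at 18.8, 20.5, 18.7 and 20.5 CPM in the KO libraries. Every KO library was lower than every control library, and Adcy9 was the 1 member whose groups did not overlap, which held for 48.4% of all genes tested. The mean fell from 28.7 ± 2.97 to 19.6 ± 1.04 CPM (SD, n = 4), 68.4% of the control level (log2 FC -0.55 ± 0.13 SE, edgeR adjusted p = 0.00331).

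Adcy3, the cyclase that knockout mice tied to the arrest, was close to the detection limit. It had 12 to 34 counts per control library and 8 to 50 per KO library, and was at 0.909, 1.04, 0.817 and 1.09 CPM in control and 0.869, 1.15, 2.28 and 1.70 CPM in the KO libraries. KO replicates 2 to 4 were above, and KO replicate 1 within, the control range (log2 FC 0.67 ± 0.34 SE, edgeR adjusted p = 0.107). Leaving out each library in turn gave log2 fold changes of 0.45 to 0.85. The largest came without KO replicate 1, the KO library within the control range, and passed the test (edgeR adjusted p = 0.0486). Adcy3 shares 1380 of its 6246 exon bases with Cenpo on the opposite strand, which had 2380 to 11697 counts (log2 FC 0.0013), so its low counts are uncertain.

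A ratio of 2 genes within a library does not depend on how libraries are scaled. The log2 ratio of Adcy9 to Adcy3 per kb was 5.17 ± 0.11 in control and 4.07 ± 0.62 in KO libraries (SD, n = 4), with control values of 5.02 to 5.28, KO values of 3.30 to 4.70 and so no overlap. The difference of -1.10 had the smallest p that 4 libraries against 4 allow (exact permutation test, two-sided p = 0.0286), which was 0.143 after adjustment over the 5 ratios.

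Pde3a codes for the main cAMP phosphodiesterase of the oocyte, whose activity ends the arrest. Pde3a (ENSMUSG00000041741, chromosome 6 from 141249269 to 141507448) was at 334, 217, 192 and 233 CPM in control and at 262, 248, 218 and 328 CPM in the KO libraries. The highest value of each group came from control replicate 1 and KO replicate 4, and the groups overlapped. The means of 244 ± 62.5 and 264 ± 46.6 CPM (SD, n = 4) differed by less than 1 SD of either group (log2 FC 0.11 ± 0.17 SE, edgeR adjusted p = 0.602). The log2 ratio of Pde3a to Gpr3 per kb was 0.63 ± 0.51 in control and 1.02 ± 0.49 in KO libraries (SD, n = 4), and the groups overlapped (exact permutation test, two-sided p = 0.314, adjusted p = 0.393 over 5 ratios).

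PKA is a tetramer of catalytic and regulatory subunits that cAMP separates. The catalytic subunit gene Prkaca had the log2 FC closest to 0, at 26.4, 21.2, 22.5 and 21.3 CPM in control and 20.1, 22.6, 23.6 and 25.3 CPM in the KO libraries (log2 FC 0.0039 ± 0.14 SE, edgeR adjusted p = 0.982). Its paralog Prkacb was at 11.8, 8.69, 8.10 and 9.03 CPM in control and at 10.5, 11.4, 9.44 and 14.9 CPM in the KO libraries (log2 FC 0.30 ± 0.19 SE, edgeR adjusted p = 0.199). KO replicate 4 was the highest and the other KO libraries lay within the control range. Prkaca held 89.6% ± 0.847 of the catalytic reads per kb in control and 87.5% ± 1.70 in KO libraries (SD, n = 4), and the log2 ratio of Prkacb to Prkaca differed by 0.29, which did not pass the test (exact permutation test, two-sided p = 0.114, adjusted p = 0.190 over 5 ratios).

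Neither regulatory subunit passed the test. Prkar1a, the type I subunit, was at 47.5, 51.8, 61.3 and 57.6 CPM in control and at 56.3, 46.4, 44.4 and 50.8 CPM in the KO libraries (log2 FC -0.14 ± 0.13 SE, edgeR adjusted p = 0.360). Prkar2a, the type II subunit that binds most anchoring proteins, was at 82.6, 61.6, 49.3 and 55.1 CPM in control and at 73.5, 74.3, 77.5 and 109.6 CPM in the KO libraries. All KO libraries were above control replicates 2 to 4, and control replicate 1 was above 3 of the KO libraries (log2 FC 0.43 ± 0.18 SE, edgeR adjusted p = 0.0577). Leaving out each library in turn gave log2 fold changes of 0.30 to 0.60 for Prkar2a. The largest came without control replicate 1 (edgeR adjusted p = 0.00495). Without both control replicate 1 and KO replicate 4 it was 0.44 (edgeR adjusted p = 0.00261). The log2 ratio of Prkar2a to Prkar1a per kb was -0.40 ± 0.48 in control and 0.18 ± 0.30 in KO libraries (SD, n = 4), a difference of 0.58 with overlap (exact permutation test, two-sided p = 0.0857, adjusted p = 0.190 over 5 ratios).

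Akap1 codes for the protein that anchors PKA at the outer mitochondrial membrane. Akap1 (ENSMUSG00000018428, chromosome 11 from 88830792 to 88864586) was at 360, 395, 310 and 378 CPM in control and at 260, 225, 317 and 260 CPM in the KO libraries. Of the KO libraries only replicate 3 reached the control range, just above control replicate 3. The mean fell from 361 ± 36.7 to 266 ± 38.2 CPM (SD, n = 4), 73.6% of the control level (log2 FC -0.44 ± 0.12 SE, edgeR adjusted p = 0.00933).

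The calls of Adcy9 and Akap1 depended on the scaling of the libraries. Scaling by library size alone raised the median log2 FC over all tested genes by 0.29, and 4 members were then higher (Prkar2a at 0.72, Prkacb at 0.59, Adcy3 at 0.96 and Pde3a at 0.41) and 0 lower, and Adcy9 (-0.26, edgeR adjusted p = 0.0993) and Akap1 (-0.16, edgeR adjusted p = 0.303) no longer passed the test. The counts of 4 higher and 0 lower were also found with TMM computed from genes averaging 10 CPM or more. A change of scaling shifts all members by nearly the same amount and so leaves their order almost as it is. That Adcy9 and Akap1 were the lowest members under each of these scalings is therefore no separate support.

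**Figure D3:**
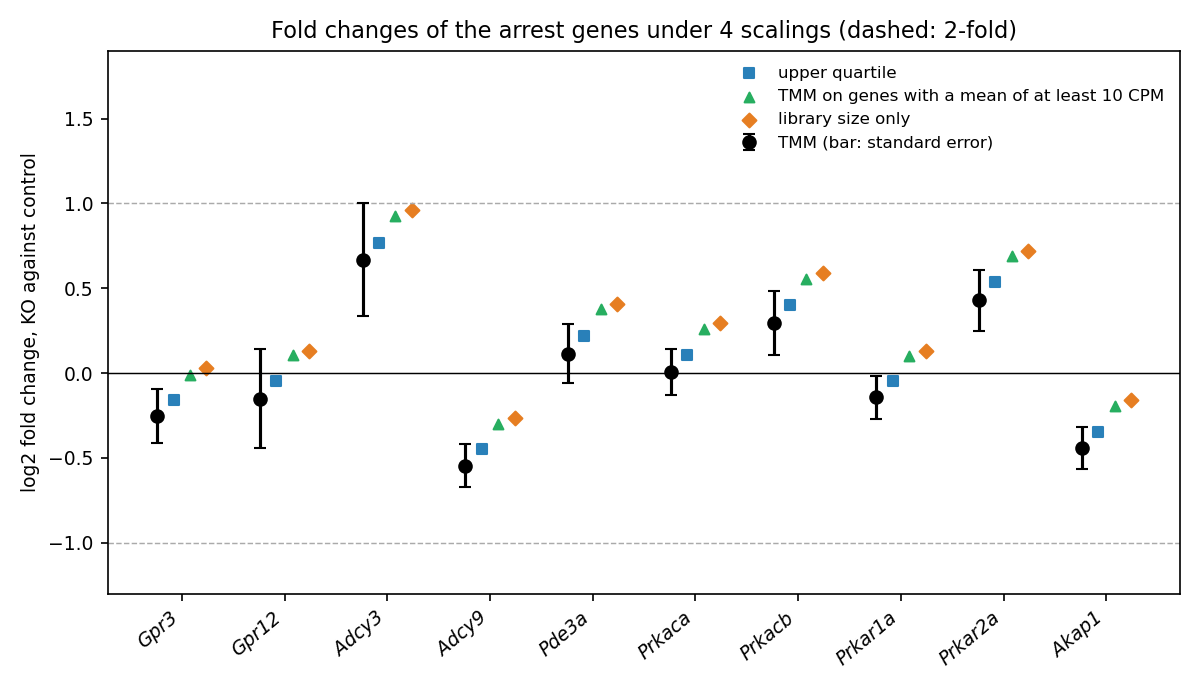
The y axis is the log2 fold change of KO against control for each member under 4 scalings of library size, with standard errors as bars for TMM and dashed lines at 2-fold. All values lie within 2-fold, and library size only lifts each member, Adcy9 from -0.55 to -0.26 and Prkar2a from 0.43 to 0.72. Adcy9 and Akap1 are the lowest under each scaling, an order that such a common shift keeps by construction.

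The share of each gene within its family, in reads per kb of the same library, is free of that scaling. These shares were added after the data were seen and have no test. The makeup of the 10 adenylyl cyclases differed between the groups. Adcy1, a calcium-stimulated form, took 14.0%, 10.7%, 14.0% and 7.97% of cyclase reads in control and 29.3%, 27.1%, 28.9% and 31.8% in KO libraries. Adcy9 took 26.5%, 23.3%, 21.4% and 26.2% in control and 15.9%, 19.0%, 14.6% and 18.3% in KO libraries, and Adcy5, the most abundant cyclase, 51.4% ± 4.22 and 36.6% ± 3.34 (SD, n = 4). The groups did not overlap for any of these 3 cyclases, of which Adcy5 was chosen after its values were seen. Nor did they for Adcy6 (5.39% to 7.54% in control, 8.87% to 14.1% in KO) and Adcy8 (3.38% to 4.27% in control, 2.53% to 3.30% in KO). Shares are parts of a fixed total, so a larger share of Adcy1 by itself lowers those of the others, and the shares are not separate findings. The share of Adcy6 nevertheless rose. In CPM with TMM scaling, Adcy5 fell from 84.4 ± 13.3 to 58.9 ± 6.82 (SD, n = 4, edgeR adjusted p = 0.00788). Adcy6 rose from 10.3 ± 1.59 to 18.6 ± 4.57 CPM (SD, n = 4, edgeR adjusted p = 0.00343), and Adcy8 was not called (edgeR adjusted p = 0.0801). Adcy1 itself rose from 32.9 ± 7.28 to 82.3 ± 8.11 CPM (SD, n = 4, log2 FC 1.32 ± 0.16 SE, edgeR adjusted p = 2.98e-05).

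Pde3a took 27.1% ± 3.19 of the reads per kb of 16 cAMP phosphodiesterases in control and 31.8% ± 3.02 in KO libraries (SD, n = 4), with overlapping groups. It was the most abundant of them in both group means. Akap1 took 37.7% ± 3.24 of the reads of 16 anchoring proteins in control and 31.5% ± 4.56 in KO libraries, again with overlap. Akap11 took 1.84% ± 0.491 and 7.47% ± 1.37 (SD, n = 4), with no overlap. Of the regulatory subunits, the share of Prkar1a was 38.3% ± 6.63 in control and 30.9% ± 2.48 in KO, that of Prkar2a 29.1% ± 4.62 and 35.2% ± 5.14, and that of Prkar2b 32.5% ± 3.49 and 33.6% ± 3.89 (SD, n = 4), with overlapping groups for all 3.

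**Figure D4:**
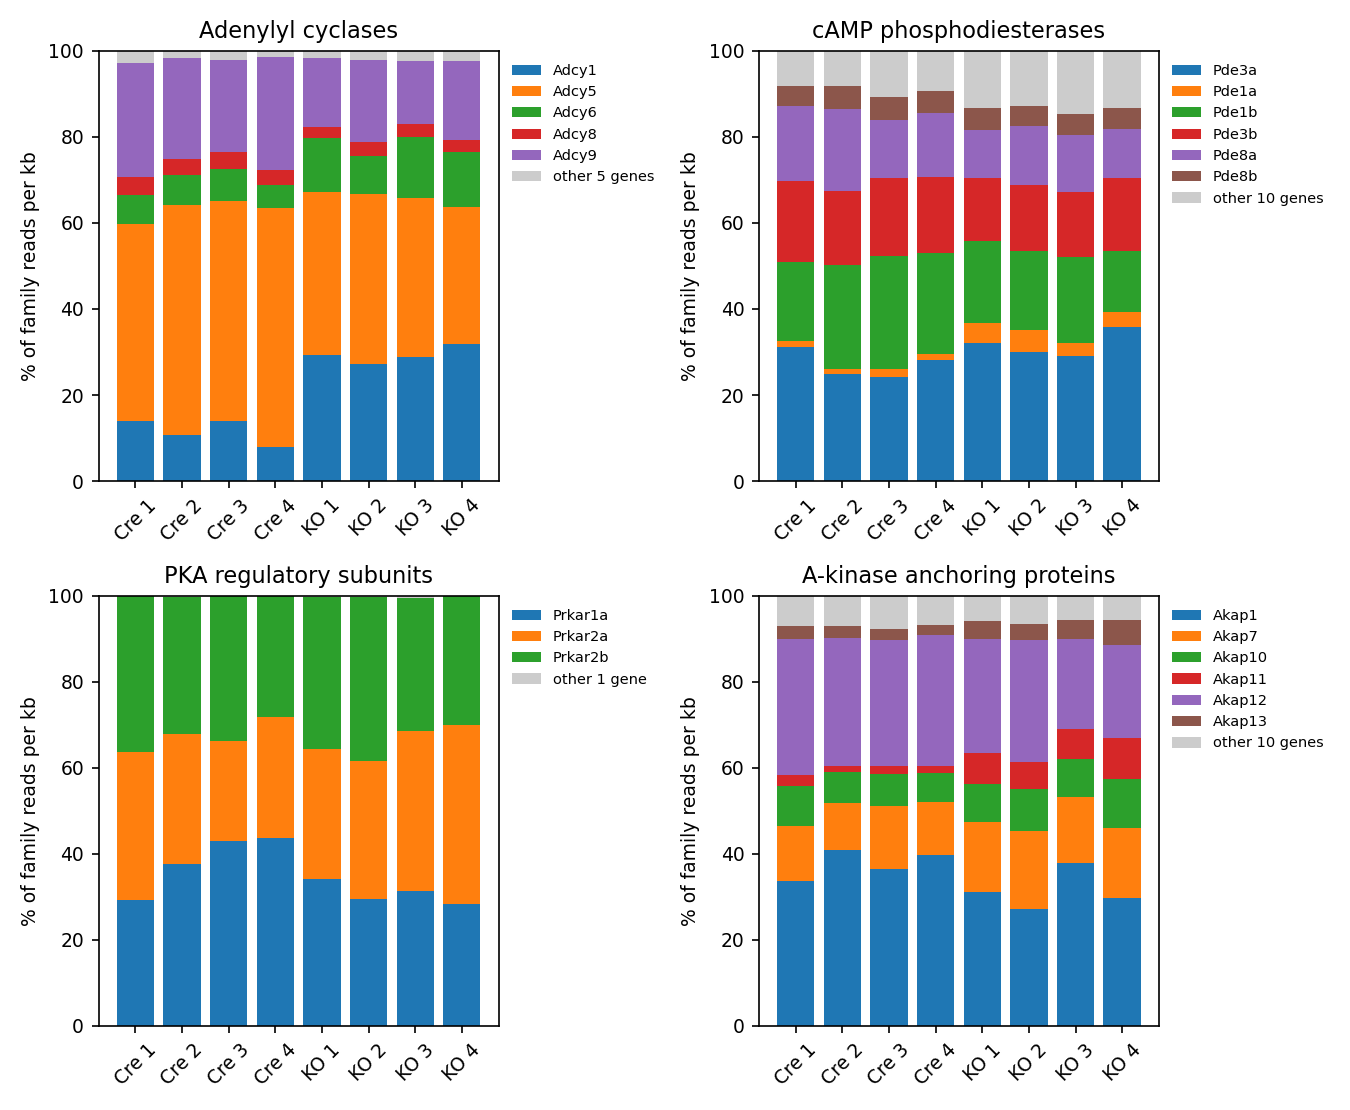
Stacked bars give, for each of the 8 libraries, the percent of reads per kb that each gene holds within its family, with genes under 4% in all libraries summed in grey. The Adcy1 share is 7.97% to 14.0% in control and 27.1% to 31.8% in KO libraries, and Pde3a is the largest part of the phosphodiesterases in the group means.

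Of 78 other listed genes of the pathway, 70 were tested, 25 were higher and 15 lower by the adjusted p, and 18 were higher and 2 lower by at least 2-fold, next to the 31.2% and 24.1%, and 23.8% and 6.56%, of all genes. Their median log2 fold change was 0.10, and the groups did not overlap for 36 of the 70, against 48.4% of all genes tested. With library size only the counts were 35 higher and 6 lower. By role, 1 of 6 tested receptor and G protein genes was higher and 2 lower, 2 of 5 cyclases higher and 1 lower, 5 of 14 phosphodiesterases higher and 3 lower, 3 of 6 PKA subunits and inhibitors higher and 0 lower, and 5 of 12 anchoring proteins higher and 3 lower. Of 8 other cAMP effectors 2 were higher and 1 lower, of 12 genes of cGMP and gap junctions 6 were higher and 2 lower, and of 7 targets at meiotic entry 1 was higher and 3 lower.

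The genes behind these small counts, named after their values were seen, included both directions within most roles. Gnai1 was higher and Gnai3 lower among the inhibitory G protein subunits. Pde2a, Pde7a and Pde11a were higher and Pde1b, Pde4d and Pde8a lower among the phosphodiesterases, and Akap2, Akap6, Akap13 and Sphkap were higher and Akap8, Akap8l and Akap12 lower among the anchoring proteins. The PKA inhibitor Pkia and the catalytic relative Prkx were higher. Some of these genes were close to the floor of 3 counts in control. Akap2 and Sphkap had 0 to 3 counts per control library, Pde11a 2 to 4 and Pkia 2 to 10. Npr2, Pde5a and Gucy1b3, which act on cGMP, were higher as well. Npr2 had only 3 to 35 counts in control and 15 to 37 in KO libraries. Its groups overlapped, with KO replicate 4, at 0.511 CPM, inside the control range of 0.219 to 0.936 CPM. Gucy1b3 had 7 to 31 counts per library. The part of granulosa cell RNA in these values was not tested. The cGMP phosphodiesterase Pde9a fell from 8.55 ± 1.29 to 2.58 ± 0.2001 CPM (SD, n = 4, log2 FC -1.73 ± 0.19 SE, edgeR adjusted p = 1.41e-05) and was, beside Rapgef3, the other gene at least 2-fold lower. Cdk1 and Cdc25a were lower among the targets at meiotic entry with TMM scaling, and their values under other scalings are not given here.

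Upstream of the cyclases, Rgs2, a regulator that limits G protein signalling, was at 659 to 901 CPM in control and 444 to 514 CPM in the KO libraries (log2 FC -0.62 ± 0.12 SE, edgeR adjusted p = 0.000933). Gnas, which codes for the stimulatory G protein and was chosen after its values were seen, was at 115 ± 7.85 and 107 ± 16.9 CPM (SD, n = 4) and was not called (edgeR adjusted p = 0.506).

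Among the phosphodiesterases, Pde4b, specific for cAMP, rose from 4.01 to 5.33 CPM in control to 14.3 to 17.8 CPM in the KO libraries (log2 FC 1.68 ± 0.16 SE, edgeR adjusted p = 5.82e-06). Pde1a, which calcium and calmodulin activate, rose from 6.01 ± 1.06 to 15.7 ± 3.90 CPM (SD, n = 4, log2 FC 1.38 ± 0.21 SE, edgeR adjusted p = 0.000191). Both remained far under Pde3a. Pkib, a PKA inhibitor, rose from 8.92 ± 1.79 to 18.1 ± 1.16 CPM (SD, n = 4, log2 FC 1.01, edgeR adjusted p = 0.000305). Its groups did not overlap, as for 48.4% of all genes tested.

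Akap11, an anchoring protein for the type II enzyme, was at 69.0, 36.4, 35.5 and 38.9 CPM in control and at 151, 132, 145 and 208 CPM in the KO libraries. Control replicate 1 lay above the other controls and still under every KO library (log2 FC 1.82 ± 0.22 SE, edgeR adjusted p = 3.24e-05).

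The largest decrease of a named gene was that of Rapgef3, the cAMP-activated exchange factor EPAC1 that acts apart from PKA. It was at 18.9, 38.9, 35.6 and 30.6 CPM in control and at 4.34, 2.91, 2.04 and 2.11 CPM in the KO libraries, 11.3-fold lower (log2 FC -3.49 ± 0.29 SE, edgeR adjusted p = 1.56e-06). The cAMP-responsive transcription factor genes Creb1, from 8.38 ± 2.07 to 22.7 ± 2.71 CPM, and Crem, from 3.62 ± 0.518 to 11.2 ± 0.194 CPM, were higher in KO (SD, n = 4, log2 fold changes 1.43 and 1.62, edgeR adjusted p = 6.58e-05 and 9.75e-06). None of these 3 genes had overlapping groups, which held for 48.4% of all genes tested.

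On the cGMP side, Prkg1, a cGMP-dependent protein kinase, rose from 67.6 ± 12.5 to 157 ± 9.26 CPM (SD, n = 4, log2 FC 1.21 ± 0.13 SE, edgeR adjusted p = 1.56e-05). Gjc1, which codes for connexin 45, rose from 0.748 to 1.63 CPM in control to 10.7 to 14.1 CPM in the KO libraries (log2 FC 3.30 ± 0.24 SE, edgeR adjusted p = 6.44e-07). Gja1, which codes for connexin 43, the connexin of granulosa cells, was at 12.9, 3.85, 7.62 and 7.07 CPM in control and at 44.2, 46.8, 28.1 and 10.8 CPM in the KO libraries (log2 FC 2.02 ± 0.43 SE, edgeR adjusted p = 0.00175). Among the KO libraries, Gja1 and 5 of the 11 tested granulosa markers had their minimum in replicate 4. Of these, Inha, chosen after its values were seen, was at 6.58, 4.44, 10.002 and 6.41 CPM in control and at 38.4, 34.1, 26.5 and 4.77 CPM in the KO libraries, whereas Cyp19a1 and Gata4 were lower in KO and Nr5a2 was highest in KO replicate 4, at 132 CPM. The part of granulosa cell RNA in the Gja1 value was not tested. Gja4, which codes for connexin 37 of the oocyte's own gap junctions and was chosen after its values were seen, fell from 385 ± 125 to 197 ± 48.8 CPM (SD, n = 4, log2 FC -0.97, edgeR adjusted p = 0.00473), with control replicate 1, at 208 CPM, inside the KO range.

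At the end of the pathway, Ccnb1, the cyclin of CDK1, was at 1625 ± 215 CPM in control and 1570 ± 89.3 CPM in the KO libraries (SD, n = 4, log2 FC -0.050, edgeR adjusted p = 0.722). With TMM scaling, the PKA targets Wee2 and Cdc25b, chosen after their values were seen, had fold changes of opposite sign. Wee2 was at -0.33 (edgeR adjusted p = 0.0234) and Cdc25b at 0.54 (edgeR adjusted p = 0.00423) on the log2 scale. Neither had overlapping groups, as for 48.4% of all genes tested. Scaling by library size alone raised the median log2 FC over all tested genes by 0.29. That is close to the size of the Wee2 change, whose value under that scaling is not given here.

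**Figure D5:**
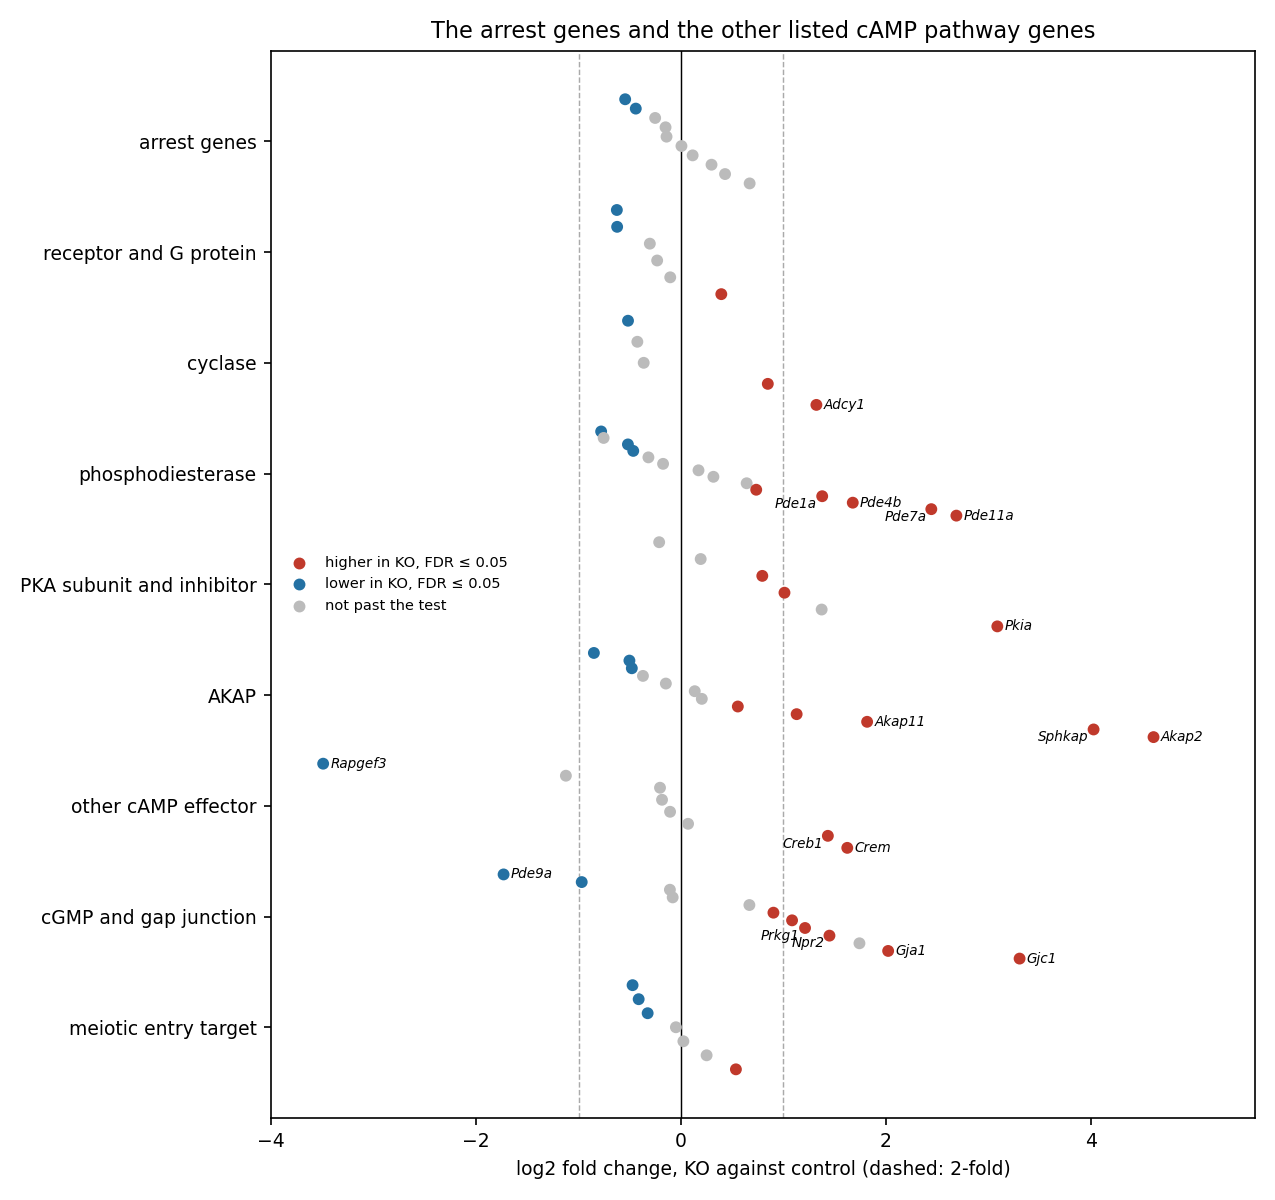
Each point is 1 tested gene, placed by its log2 fold change of KO against control, for the 10 arrest genes and the 70 other pathway genes by role, with red and blue for genes higher and lower at an adjusted p of at most 0.05. All 10 arrest genes lie between the dashed 2-fold lines, whereas Rapgef3 (-3.49), Gjc1 (3.30) and Akap11 (1.82) lie outside.

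To place Gpr3 and Pde3a among all genes, their profiles over the 8 libraries were compared with those of 8727 genes averaging 10 CPM or more by the root mean square difference of centred log2 CPM. The closest to Gpr3 were 1700030J22Rik at 0.072, Slc35a4 at 0.081 and Clk2 at 0.082, where the median gene was at 0.38. The closest to Pde3a were Zhx3 at 0.050, Unc5c at 0.062 and Cd164 at 0.070, against a median of 0.42. These are descriptions over 8 libraries of 2 groups.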

How the data were processed

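The authors depleted ribosomal RNA from total RNA of GV oocytes, sequenced paired-end libraries, mapped the reads with STAR 2.6.1d in nf-core/rnaseq to GRCm38, and deposited raw read counts per gene and library. The counting tool, annotation and strand setting are not given in the sources used here. Members, lists and ratios were chosen with earlier results of these data known.

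Genes reaching 0.2 CPM in at least 2 libraries entered the test in R 4.3.3 with edgeR 4.0.16 (quasi-likelihood test, TMM, Benjamini-Hochberg adjustment over all genes). Log2 CPM profiles used a prior count of 2. Ratios within a library were compared by an exact permutation test over 70 assignments, two-sided. Alternatives were edgeR's exact test, DESeq2 1.42.0, other scalings and filters, the replicate number as a block, and leaving out libraries. The fit was also run on simulated data in which 200 genes were changed 4-fold and 18804 genes were tested. It recovered 199 of the 200, with 1 false call. With so few genes changed, that run does not test the scaling. Floors of 3 counts cover counting error only, since PCR reads are not independent molecules.

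Named genes were all members, Cnot7 and Cnot8, the 3 genes closest in profile to Gpr3 and to Pde3a, and of the pathway list, in each role, those with a 2-fold change past the test and a group mean of at least 10 CPM, or else the most abundant. Family shares were added after the data were seen. Exon lengths and 3′UTRs came from GENCODE vM21 (GRCm38). Figures were drawn with matplotlib 3.10.9 in Python 3.11.15.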

Additional observations from a re-analysis of the deposited data

Results flagged for a closer look

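Of 212 groups of 4 values, from 101 genes (the arrest genes, the tested pathway genes and granulosa markers, and the other genes compared with them) and 5 ratios, 15 held a single library that exceeded Dixon's 95% limit, where chance gives about 1 in 20, or 10.6. Control replicate 1 or KO replicate 4 was that library in 12 of the 15. Among the arrest genes the limit was exceeded for Prkar2a alone, at 109.6 CPM in KO replicate 4 and 73.5 to 77.5 CPM in the other KO libraries.

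Control replicate 1 was high for Gnai3 at 246 CPM (177 to 183 in the other control libraries), Rgs2 at 901 CPM (659 to 698), Pde3b at 144 CPM (104 to 107), Akap10 at 146 CPM (94.6 to 102), Akap11 at 69.0 CPM (35.5 to 38.9), Cnot7 at 1049 CPM (886 to 900.2) and Cd164 at 278 CPM (163 to 181). KO replicate 4 was high for Gjc1 at 14.1 CPM (10.7 to 10.97 in the other KO libraries), Prkg1 at 170.3 CPM (149.997 to 153), Sphkap at 1.67 CPM (1.295 to 1.32) and Unc5c at 397 CPM (266 to 279). In other libraries, Pde4b was low in control replicate 4, at 4.01 CPM (5.11 to 5.33 in the other control libraries), Nppc was at 0.296 CPM in control replicate 2 (0.0680 to 0.0802) and Clk2 at 40.8 CPM in KO replicate 3 (27.6 to 29.3 in the other KO libraries).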

How the results depend on the processing

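Adcy9 and Akap1 were lower at a false discovery rate of 0.05 under each alternative except library size only and TMM from genes averaging 10 CPM or more, where 4 members were higher and 0 lower. The number of members called higher was 1 (Prkar2a) with DESeq2, with RLE, with upper quartile, with either other filter, and without control replicate 1 and KO replicate 4 together, an alternative chosen after seeing the data. It ranged from 0 to 2 when each library was left out. For the pathway list, 6 genes were lower with library size only and 7 with TMM from those genes, and 4 were at least 2-fold lower without both libraries. The direction of small changes depended on the setting. Scaled by library size alone, the fold changes (log2) were 0.030 for Gpr3, 0.13 for Gpr12, 0.13 for Prkar1a and 0.24 for Ccnb1. With TMM from those genes they were 0.11 for Gpr12, 0.099 for Prkar1a and 0.21 for Ccnb1 (past the test), and Ccnb1 was at 0.051 with upper quartile and 0.021 with the filter of 1 CPM in 4 libraries. Gpr12 was at 0.037 without both libraries. Leaving out each library gave -0.31 to 0.053 for Gpr12, -0.033 to 0.088 for Prkaca, -0.11 to 0.034 for Ccnb1 and -0.15 to 0.38 for the log2 ratio of Gpr12 to Gpr3. The causes were not tested.

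The replicate numbers did not pair the libraries: deviations of same-numbered libraries correlated at -0.072, -0.042, 0.11 and -0.12. With the replicate block, 0 members were higher and 2 lower, and 24 pathway genes were higher and 15 lower. For the ratios, pairing leaves the mean difference as it is by construction (-1.10 for Adcy9 to Adcy3), and a sign-flip test of 4 pairs cannot reach a p of 0.05. Depth limits Adcy3 most, at 8 counts in KO replicate 1.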
